A study of Homo sapiens with 16 samples.

Results

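MDM2, GDF15, BBC3, BAX, FAS, TP53INP1, SESN1, TP53I3, BTG2 and ZMAT3 are genes whose transcription p53 can activate. They were chosen by gene name from the deposited tables, leaving out CDKN1A, and all 10 were found once among the 58721 genes listed. Their RNA was followed in 16 libraries from 2 established human bladder cancer lines, the luminal RT112 and the basal SCaBER. In each line the cells were transfected with 10 nM of an siRNA, a short double-stranded RNA that lowers the transcript it matches. siFOXA1.1 and siFOXA1.2 target FOXA1, a transcription factor of luminal urothelial cells, and siControl.1 and siControl.2 served as controls. Every siRNA had 2 libraries in each line, which the labels number as experiment batch replicates 1 and 2, and values are given in that order. RT112 was grown in RPMI and SCaBER in DMEM, both with serum, so line and medium cannot be told apart.

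p53 is a transcription factor that is stabilized by DNA damage and other stress. It binds DNA as a tetramer at a pair of adjoining half-sites and raises genes for growth arrest, cell death, metabolism and its own removal. The related factors p63 and p73 recognise similar sites, and p63 is a hallmark of basal urothelial cells. Many of these genes also respond to other factors, such as the stress factor ATF4 for GDF15 and BBC3 and interferon signalling for FAS. Neither p53 protein nor its binding was measured in these libraries.

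Libraries held 4528513 to 7604581 counts, and a floor of 3 counts, used as the limit of detection, equalled at most 0.662 CPM, counts scaled to 1000000 per library. FOXA1, the targeted gene, read 34.98 and 29.4 CPM with siControl.1, 18.2 and 28.4 with siControl.2, 1.32 and 3.24 with siFOXA1.1 and 9.18 and 16.0 with siFOXA1.2 in RT112. Against both controls the difference was log2 -3.44, SE 0.474, adjusted p = 2.19e-05 for siFOXA1.1 and log2 -1.10, SE 0.391, adjusted p = 0.205 for siFOXA1.2. In SCaBER FOXA1 held only 3 and 4 counts with siControl.1, 15 and 9 with siControl.2, 0 and 3 with siFOXA1.1 and 0 and 6 with siFOXA1.2, too few for its knock-down to be tested there. The summed luminal markers stood at 5294 to 6344 CPM in the RT112 control libraries and 1055 to 1345 CPM in those of SCaBER, and the summed basal markers at 340.2 to 502.6 and 2302 to 3964 CPM. Of the luminal markers, 8 of 10 passed the floor in RT112 controls, and KRT20 and UPK3A did not. Of the fibroblast markers, LUM read 48.9 to 137 CPM in RT112 and 4.86 to 28.2 CPM in SCaBER and COL1A1 7.50 to 56.5 and 1.54 to 20.4 CPM, while COL3A1 and DCN were at or under the floor in all 16 libraries. Of the leukocyte and endothelial markers, PTPRC, CD3E and VWF were at or under the floor throughout, and PECAM1 reached 11.2, LYZ 3.22, CDH5 2.65 and CD68 1.52 CPM at most. Mitochondrial transcripts took 25.7% and 28.2% of counts with siFOXA1.1 in RT112 and 17.99% to 21.2% in the other RT112 libraries, and the summed luminal markers stood at 3550.2 to 3798 CPM with siFOXA1.1 there. The part of these shifts in the results was not tested. The labels do not say that the libraries came from separate cultures, so p-values measure the spread between libraries, and in bulk RNA fewer cells with a transcript and less transcript per cell cannot be told apart.

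Promoter sequence was read from RefSeq windows of 300 bases around annotated transcript starts (GRCh38.p14), and 9 of the 10 genes had at least 1 window, 17 windows in all. Each was searched for pairs of p53 half-sites, the consensus of 10 letters that reads the same on both strands, with 0 to 13 bases between them. An exact half-site occurred in 2 of the 17 windows, 1 of FAS and 1 of SESN1, and in 6.63% of all 35116 promoter windows. The closest pairs differed from the 20-letter consensus at 2 positions, in windows of MDM2, FAS and SESN1, and 7.82% of all windows held a pair at least as close. The pairs shown for MDM2 and FAS are of this kind. In GDF15, BBC3 and ZMAT3, and in the SESN1 window with the exact half-site, the pair shown has 3 differences, a closeness reached in 39.1% of all windows, and in BTG2 it has 4, reached in 84.2%. The stretches lie at chr12:68808918-68808947 on the plus strand (MDM2), chr10:88991304-88991333 on the plus strand (FAS), chr6:109009013-109009042 on the minus strand (SESN1), chr19:18386181-18386207 on the plus strand (GDF15), chr19:47232808-47232845 on the minus strand (BBC3), chr1:203305500-203305529 on the plus strand (BTG2) and chr3:179071862-179071897 on the minus strand (ZMAT3). They show how near the promoters of a steady gene, of low genes and of the genes that changed come to the consensus, and capitals mark the half-sites.
MDM2: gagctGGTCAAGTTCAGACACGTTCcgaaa
FAS: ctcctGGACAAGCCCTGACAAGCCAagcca
SESN1: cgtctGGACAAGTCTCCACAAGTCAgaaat
GDF15: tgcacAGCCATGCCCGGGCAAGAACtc
BBC3: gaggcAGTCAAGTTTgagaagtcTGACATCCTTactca
BTG2: gcccgGGGAAAGTCCGGGCAGAGCCcgagc
ZMAT3: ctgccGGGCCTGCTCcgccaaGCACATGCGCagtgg
Counted from the transcript start, the first half-site begins at -94 in MDM2, -122 in FAS, -49 in SESN1, 29 in GDF15, -173 in BBC3, -14 in BTG2 and -83 in ZMAT3. In MDM2, FAS, SESN1, GDF15 and BTG2 the pair adjoins, and in BBC3 and ZMAT3 a spacer of 8 and 6 bases parts them. A match of letters is not a bound site, and no match speaks only for this window.

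Levels in the control libraries were compared between genes per length, in TPM, transcripts scaled to the same total, for a kit that reads 1 end of each transcript. In RT112 BTG2 led with 41.2 ± 10.4 TPM (SD, n = 4), followed by MDM2 at 8.64 ± 0.752, ZMAT3 at 8.45 ± 1.76, SESN1 at 6.71 ± 2.90, GDF15 at 4.81 ± 1.37, TP53I3 at 4.37 ± 1.89, TP53INP1 at 2.52 ± 1.34, BBC3 at 1.90 ± 1.61, BAX at 1.80 ± 1.02 and FAS at 0.465 ± 0.499 TPM. In TPM BTG2 stood above MDM2 by more than the sum of their SDs, and the neighbours from MDM2 to FAS differed by less than the sum of their SDs. In CPM, which does not divide by length, BTG2 (57.9 ± 13.7) and MDM2 (58.7 ± 5.89) were level in RT112, so that lead rests on the scaling. In SCaBER the order opened with BBC3 at 18.4 ± 6.72, TP53I3 at 11.5 ± 2.22, MDM2 at 8.46 ± 0.836, GDF15 at 6.50 ± 3.07 and BTG2 at 5.26 ± 3.83 TPM. It went on with ZMAT3 at 4.53 ± 1.07, BAX at 3.12 ± 2.42, FAS at 2.87 ± 2.24, SESN1 at 2.70 ± 1.13 and TP53INP1 at 0.458 ± 0.729 TPM. Between neighbours in this order, the step in TPM from TP53I3 to MDM2 exceeded the sum of their SDs by a narrow margin. The step from SESN1 to TP53INP1 also exceeded that sum, and the others did not. In CPM MDM2 read 39.1 to 49.9 in the SCaBER controls, above BBC3 at 15.6 to 35.3 and TP53I3 at 7.17 to 11.8. The places of BBC3 and TP53I3 above MDM2 thus rest on the scaling.

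The first comparison asked how the lines differ without knock-down. With edgeR's quasi-likelihood test and Benjamini-Hochberg adjustment over 12309 genes, 6 of the 10 genes passed an adjusted p of 0.05, where 43.4% of all genes did. TP53INP1, SESN1, BTG2 and ZMAT3 were higher in RT112, and BBC3 and FAS were higher in SCaBER. BTG2, an antiproliferative factor that recruits the deadenylase complex to messenger RNA, read 49.2 and 54.5 and 49.9 and 78.1 CPM in RT112 and 3.16 and 11.4 and 4.54 and 3.31 CPM in SCaBER. The groups did not overlap, and the difference was 10.3-fold (log2 3.36, SE 0.368, adjusted p = 3.49e-06). BBC3, which encodes the pro-apoptotic protein PUMA, read 2.76 and 7.10 and 1.73 and 0.973 CPM in RT112 and 35.3 and 22.6 and 15.6 and 18.3 CPM in SCaBER. Every SCaBER control lay above every RT112 control, by 7.20-fold in the fit (log2 -2.85, SE 0.527, adjusted p = 0.000453). SESN1, a sestrin that restrains mTORC1 signalling, and ZMAT3, an RNA-binding zinc-finger protein, also separated the lines without overlap. Of all 12309 genes, 41.7% separated the lines in this way, so the separation is common. SESN1 was 3.26-fold higher in RT112 (log2 1.71, SE 0.404, adjusted p = 0.00306) and ZMAT3 2.45-fold higher (log2 1.29, SE 0.260, adjusted p = 0.000886).

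The other calls between the lines were closer to the threshold. TP53INP1, a nuclear protein that promotes p53 activity and autophagy, held 43 and 19 and 82 and 68 counts in RT112 controls and 0 and 21 and 0 and 3 counts in those of SCaBER. 3 of these 4 SCaBER libraries were at or under the floor and the fourth overlapped RT112 (log2 2.84, SE 0.994, adjusted p = 0.031). FAS, a death receptor of the cell surface, held 2 and 1 and 18 and 8 counts in RT112 and 24 and 20 and 11 and 46 in SCaBER, with overlap between the lines (log2 -2.24, SE 0.871, adjusted p = 0.0499). The TP53INP1 call was lost without SCaBER siControl.1 replicate 1, SCaBER siControl.2 replicate 1 or 2, or RT112 siControl.2 replicate 1 or 2, each left out alone (adjusted p from 0.0582 to 0.0867). The FAS call was lost without any of 6 of the 8 control libraries, the exceptions being SCaBER siControl.2 replicate 1 and RT112 siControl.2 replicate 1, and was weakest without SCaBER siControl.2 replicate 2, its highest library (log2 -1.59, adjusted p = 0.222), and with the replicate block it was log2 -2.23 (adjusted p = 0.0664). MDM2, at least 50.03 CPM in RT112 controls and at most 49.9 CPM in SCaBER controls, barely separated the lines and missed the threshold (log2 0.43, 95% interval 0.061 to 0.80, adjusted p = 0.0568), as did TP53I3 (log2 -1.02, 95% interval -1.91 to -0.12, adjusted p = 0.0626). MDM2 passed it without SCaBER siControl.1 replicate 1 (adjusted p = 0.0495) or RT112 siControl.2 replicate 1 (0.0458), and TP53I3 without SCaBER siControl.1 replicate 2 (0.0349) or RT112 siControl.2 replicate 2 (0.0318). With all libraries TP53I3 was also called by DESeq2 (adjusted p = 0.047) and by limma on log2(TPM + 1) (0.00309) and log2(TPM + 0.1) (0.00447). GDF15 (log2 -0.03, 95% interval -1.15 to 1.09, adjusted p = 0.971) and BAX (log2 -0.36, 95% interval -1.94 to 1.23, adjusted p = 0.737) were not called, with intervals that leave room for differences of 2-fold or more in either direction.

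**Figure D1:**
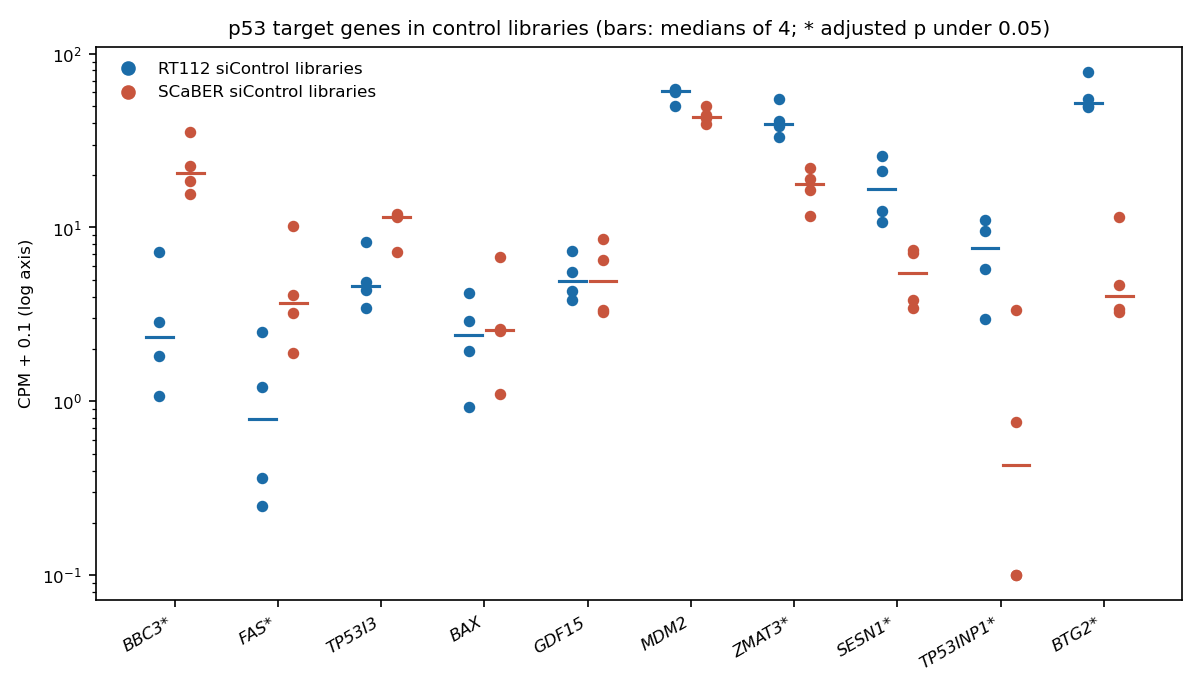
CPM plus 0.1 (log axis) of the 10 p53 target genes in the 4 siControl libraries of RT112 (blue) and of SCaBER (red), with bars at the medians and asterisks at genes with an adjusted p under 0.05. BBC3 lies higher in SCaBER and BTG2, SESN1 and ZMAT3 lie higher in RT112, each with no overlap, whereas GDF15 and BAX overlap. Of all genes tested, 41.7% have no overlap between the lines.

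The next comparisons asked what each FOXA1 siRNA did in RT112. Against both controls, siFOXA1.1 changed 5 of the 9 genes tested, where 32.6% of 11986 genes changed. GDF15, BBC3, TP53INP1 and ZMAT3 rose and BTG2 fell. The median change of the 9 was log2 0.24, against -0.011 over all genes tested. With siFOXA1.2 none of the 9 genes was called by edgeR, DESeq2 or limma, where edgeR called 2.04% of all genes. GDF15 and SESN1 had an unadjusted p under 0.05 there, and the median was log2 0.39. FAS did not pass the filter on low counts in RT112 and was not tested. Both siRNAs were compared with the same 4 control libraries, so their values are set side by side and no overlap between them is given. Where both libraries of an siRNA are said to lie above or below all controls, the share of all genes placed so was not counted.

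**Figure D2:**
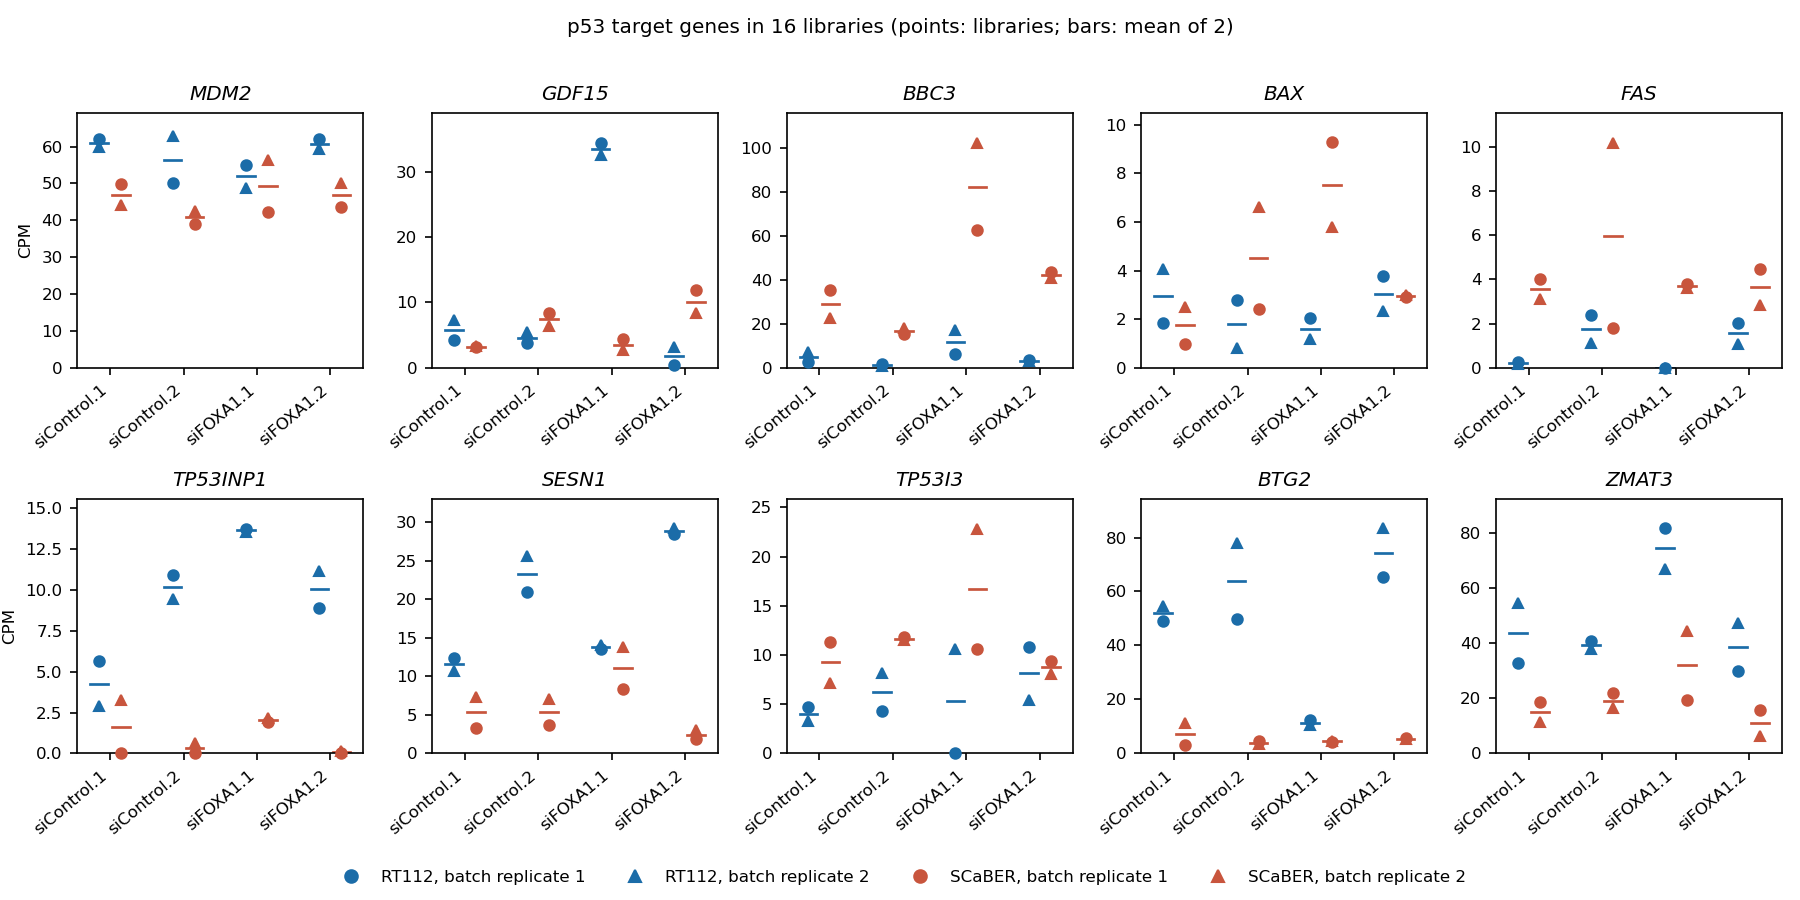
CPM of the 10 p53 target genes in each of the 16 libraries by siRNA, RT112 in blue and SCaBER in red, with circles for batch replicate 1, triangles for batch replicate 2 and bars at the mean of both. GDF15 stands high in both RT112 siFOXA1.1 libraries and BTG2 stands low in them, while MDM2 stays between 39.1 and 62.8 CPM throughout.

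MDM2 encodes the ubiquitin ligase that marks p53 for degradation and is the standard feedback target of the pathway. In RT112 it read 61.9 and 59.9 CPM with siControl.1, 50.03 and 62.8 with siControl.2, 54.9 and 48.9 with siFOXA1.1 and 62.1 and 59.4 with siFOXA1.2. The siFOXA1.1 libraries fell within or just under the range of the controls, and no change was called with siFOXA1.1 (log2 -0.041, 95% interval -0.43 to 0.35, adjusted p = 0.892) or siFOXA1.2 (log2 0.07, 95% interval -0.31 to 0.46, adjusted p = 0.944). In SCaBER MDM2 read 49.9 and 44.1 CPM with siControl.1, 39.1 and 42.6 with siControl.2, 42.2 and 56.3 with siFOXA1.1 and 43.7 and 50.2 with siFOXA1.2. The groups overlapped, with log2 0.20, 95% interval -0.32 to 0.71, adjusted p = 0.704 for siFOXA1.1 and log2 0.12, 95% interval -0.40 to 0.63, adjusted p = 0.999 for siFOXA1.2. All 4 intervals lie within 1 unit of 0 on the log2 scale, so a change of 2-fold or more in either direction lies outside them.

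Of the genes of cell death, BBC3 was the only 1 called in both lines. In RT112 it read 2.76 and 7.10 CPM with siControl.1, 1.73 and 0.973 with siControl.2, 6.30 and 17.4 with siFOXA1.1 and 3.35 and 3.14 with siFOXA1.2. The second siFOXA1.1 library was the highest, while the first lay below the higher siControl.1 library, so the groups overlapped. The fit gave log2 2.33, SE 0.665, adjusted p = 0.0113 for siFOXA1.1 and log2 0.34, 95% interval -1.13 to 1.82, adjusted p = 0.928 for siFOXA1.2. The control siRNAs themselves differed by log2 1.91 (adjusted p = 0.336), and against siControl.1 alone the siFOXA1.1 difference was log2 1.38 (adjusted p = 0.22). Without siFOXA1.1 replicate 2 it was log2 1.38 (adjusted p = 0.308). Within batches the siFOXA1.1 difference on the log2(CPM + 1) scale was 1.19 in batch 1 and 2.20 in batch 2.

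In SCaBER BBC3 read 35.3 and 22.6 CPM with siControl.1, 15.6 and 18.3 with siControl.2, 62.5 and 102 with siFOXA1.1 and 43.7 and 40.9 with siFOXA1.2. All 4 libraries with a FOXA1 siRNA lay above all 4 control libraries. Of all genes tested in SCaBER, 5.28% had no overlap between these groups, in either direction. The rise with siFOXA1.1 was 3.78-fold (log2 1.92, SE 0.272, adjusted p = 0.000534) and was called in all 17 alternatives tried. With siFOXA1.2 the value was log2 0.95, 95% interval 0.36 to 1.55, adjusted p = 0.523. Within batches the siFOXA1.1 difference was 1.37 in batch 1 and 2.27 in batch 2, and that of siFOXA1.2 was 0.86 in batch 1 and 0.97 in batch 2. BBC3 was the 1 gene of the 9 tested in SCaBER that siFOXA1.1 changed, where 9.26% of 11902 genes changed, and the median of the 9 was log2 0.71, against 0.014 over all genes. With siFOXA1.2 none of the 9 was called by edgeR, DESeq2 or limma, where edgeR called 0.042% of all genes, and BBC3 alone had an unadjusted p under 0.05. TP53INP1 did not pass the filter in SCaBER.

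BAX, the effector that opens the outer mitochondrial membrane, was low in these 3' libraries. It held 14 and 27 counts with siControl.1, 21 and 6 with siControl.2, 14 and 8 with siFOXA1.1 and 26 and 17 with siFOXA1.2 in RT112, and 6 and 16 counts with siControl.1, 15 and 30 with siControl.2, 49 and 40 with siFOXA1.1 and 19 and 19 with siFOXA1.2 in SCaBER. Both SCaBER siFOXA1.1 libraries held the most counts, but 1 control library reached 6.62 CPM against 5.78 CPM in the lower of them. The SCaBER siFOXA1.1 difference was log2 1.46, 95% interval -0.25 to 3.17, adjusted p = 0.302. FAS held 2 and 1 counts with siControl.1, 18 and 8 with siControl.2, 0 and 0 with siFOXA1.1 and 14 and 8 with siFOXA1.2 in RT112. No read of FAS was found in either siFOXA1.1 library, which allows up to 3 counts in each, and the siControl.1 libraries were also at or under that floor. In SCaBER FAS held 24 and 20 counts with siControl.1, 11 and 46 with siControl.2, 20 and 25 with siFOXA1.1 and 29 and 18 with siFOXA1.2, with overlapping groups and log2 -0.28, 95% interval -2.14 to 1.59, adjusted p = 0.898 for siFOXA1.1. FAS overlaps ACTA2 and an antisense gene in the RefSeq annotation, and its reads cannot be parted from theirs where strand was not used. The same limit holds for MDM2, which overlaps the gene named CPM, TP53INP1 (NDUFAF6), SESN1 (ARMC2 and RNU6-653P) and TP53I3 (FAM228B). It holds also for GDF15 (MIR3189) and BBC3 (MIR3190 and MIR3191), while BAX, BTG2 and ZMAT3 overlap no other annotated gene.

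GDF15, a secreted stress cytokine of the TGF-beta superfamily, showed the widest gap between the siRNAs. In RT112 it read 4.21 and 7.25 CPM with siControl.1, 3.73 and 5.42 with siControl.2, 34.4 and 32.6 with siFOXA1.1 and 0.437 and 3.14 with siFOXA1.2. Both siFOXA1.1 libraries lay far above the controls, and both siFOXA1.2 libraries lay below them. The rise with siFOXA1.1 was 7.17-fold (log2 2.84, SE 0.473, adjusted p = 0.000146) and was called in all 17 alternatives tried. The siFOXA1.2 difference did not pass the test (log2 -1.47, 95% interval -2.70 to -0.24, adjusted p = 0.285). Within batches the siFOXA1.1 difference on the log2(CPM + 1) scale was 2.84 in batch 1 and 2.21 in batch 2. In SCaBER GDF15 read 3.16 and 3.27 CPM with siControl.1, 8.44 and 6.40 with siControl.2, 4.36 and 2.75 with siFOXA1.1 and 11.9 and 8.40 with siFOXA1.2. The siFOXA1.1 libraries lay inside the range of the controls or below it (log2 -0.43, 95% interval -1.83 to 0.98, adjusted p = 0.774), and the siFOXA1.2 value was log2 1.07, 95% interval -0.24 to 2.37, adjusted p = 0.999.

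BTG2 was the gene of growth arrest that fell. In RT112 it read 49.2 and 54.5 CPM with siControl.1, 49.9 and 78.1 with siControl.2, 12.3 and 10.3 with siFOXA1.1 and 65.4 and 83.4 with siFOXA1.2. Both siFOXA1.1 libraries lay below every other RT112 library, a 4.64-fold lower level (log2 -2.21, SE 0.255, adjusted p = 3.09e-06), and the call held in all 17 alternatives. The siFOXA1.2 libraries overlapped the controls (log2 0.39, 95% interval -0.059 to 0.84, adjusted p = 0.511). Within batches the siFOXA1.1 difference was -1.93 in batch 1 and -2.55 in batch 2. In SCaBER BTG2 read 3.16 and 11.4 CPM with siControl.1, 4.54 and 3.31 with siControl.2, 4.17 and 4.63 with siFOXA1.1 and 5.55 and 5.39 with siFOXA1.2, with siFOXA1.1 inside the control range (log2 -0.25, 95% interval -1.85 to 1.35, adjusted p = 0.892). Leaving out siControl.1 replicate 2, the highest of these, moved that value to log2 0.34 (adjusted p = 0.873).

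ZMAT3 rose in RT112 with siFOXA1.1. It read 33.0 and 54.7 CPM with siControl.1, 40.9 and 38.1 with siControl.2, 82.0 and 67.2 with siFOXA1.1 and 30.02 and 47.4 with siFOXA1.2. Both siFOXA1.1 libraries lay above the controls, by 1.97-fold (log2 0.97, SE 0.232, adjusted p = 0.00335). On log2(TPM + 1) with limma the change was log2 0.61 and was not called (adjusted p = 0.122). In SCaBER ZMAT3 read 18.8 and 11.5 CPM with siControl.1, 21.9 and 16.3 with siControl.2, 19.5 and 44.4 with siFOXA1.1 and 15.7 and 6.18 with siFOXA1.2. One siFOXA1.1 library was high there and the other lay among the controls (log2 0.92, 95% interval 0.0073 to 1.84, adjusted p = 0.214), and within batches the difference was -0.055 in batch 1 and 1.62 in batch 2.

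SESN1 was called between siRNAs to the same target and not against the controls. In RT112 it read 12.4 and 10.7 CPM with siControl.1, 20.9 and 25.6 with siControl.2, 13.5 and 14.0 with siFOXA1.1 and 28.4 and 29.2 with siFOXA1.2. The siControl.1 and siFOXA1.1 libraries were low and the siControl.2 and siFOXA1.2 libraries were high, and the controls differed from each other by log2 -0.94 (adjusted p = 0.211). Neither siFOXA1.1 (log2 -0.12, 95% interval -0.76 to 0.52, adjusted p = 0.804) nor siFOXA1.2 (log2 0.83, 95% interval 0.23 to 1.44, adjusted p = 0.187) passed the test against both controls. In SCaBER SESN1 read 3.33 and 7.33 CPM with siControl.1, 3.73 and 7.07 with siControl.2, 8.33 and 13.7 with siFOXA1.1 and 1.85 and 3.01 with siFOXA1.2. There both siFOXA1.1 libraries lay above the controls and both siFOXA1.2 libraries below them, without a call for either (log2 1.07, 95% interval -0.31 to 2.45, adjusted p = 0.359 and log2 -1.11, 95% interval -2.65 to 0.43, adjusted p = 0.999). Counts were low, at 44 and 95 with siFOXA1.1 and 12 and 19 with siFOXA1.2, and both intervals include no change.

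TP53INP1 read 5.65 and 2.87 CPM with siControl.1, 10.9 and 9.45 with siControl.2, 13.8 and 13.6 with siFOXA1.1 and 8.89 and 11.2 with siFOXA1.2 in RT112. The siFOXA1.1 libraries were the highest, but siControl.2 lay well above siControl.1 as well (log2 -1.19 for siControl.1 against siControl.2, adjusted p = 0.337). The call with siFOXA1.1 (log2 1.18, SE 0.433, adjusted p = 0.0438) held in 4 of 17 alternatives, and against siControl.2 alone the value was log2 0.59 (adjusted p = 0.438). It was lost without any 1 of the 8 RT112 libraries other than siControl.1 replicate 1, with adjusted p from 0.0531 to 0.127. In SCaBER the gene held 0 and 21 counts with siControl.1, 0 and 3 with siControl.2, 10 and 15 with siFOXA1.1 and 0 and 1 with siFOXA1.2. There 3 of the 4 control libraries and both siFOXA1.2 libraries were at or under the floor, and both siFOXA1.1 libraries were above it.

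TP53I3, a quinone oxidoreductase tied to reactive oxygen species, differed between the 2 siFOXA1.1 libraries in both lines. In RT112 it held 36 and 22 counts with siControl.1, 32 and 59 with siControl.2, 0 and 72 with siFOXA1.1 and 74 and 40 with siFOXA1.2. The siFOXA1.1 libraries thus gave both the lowest and nearly the highest count of the line, and the fit was log2 0.24, 95% interval -1.72 to 2.20, adjusted p = 0.873. Within batches the siFOXA1.1 difference was -2.46 in batch 1 and 0.88 in batch 2, opposite in sign. Without siFOXA1.1 replicate 2 the fit called a fall against the controls and against siFOXA1.2, which then rests on the 1 library with no read. In SCaBER TP53I3 read 11.3 and 7.17 CPM with siControl.1, 11.8 and 11.5 with siControl.2, 10.6 and 22.8 with siFOXA1.1 and 9.41 and 8.08 with siFOXA1.2, with log2 0.71, 95% interval -0.25 to 1.67, adjusted p = 0.388 for siFOXA1.1. Within batches that difference was -0.12 in batch 1 and 1.24 in batch 2, again opposite in sign.

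**Figure D3:**
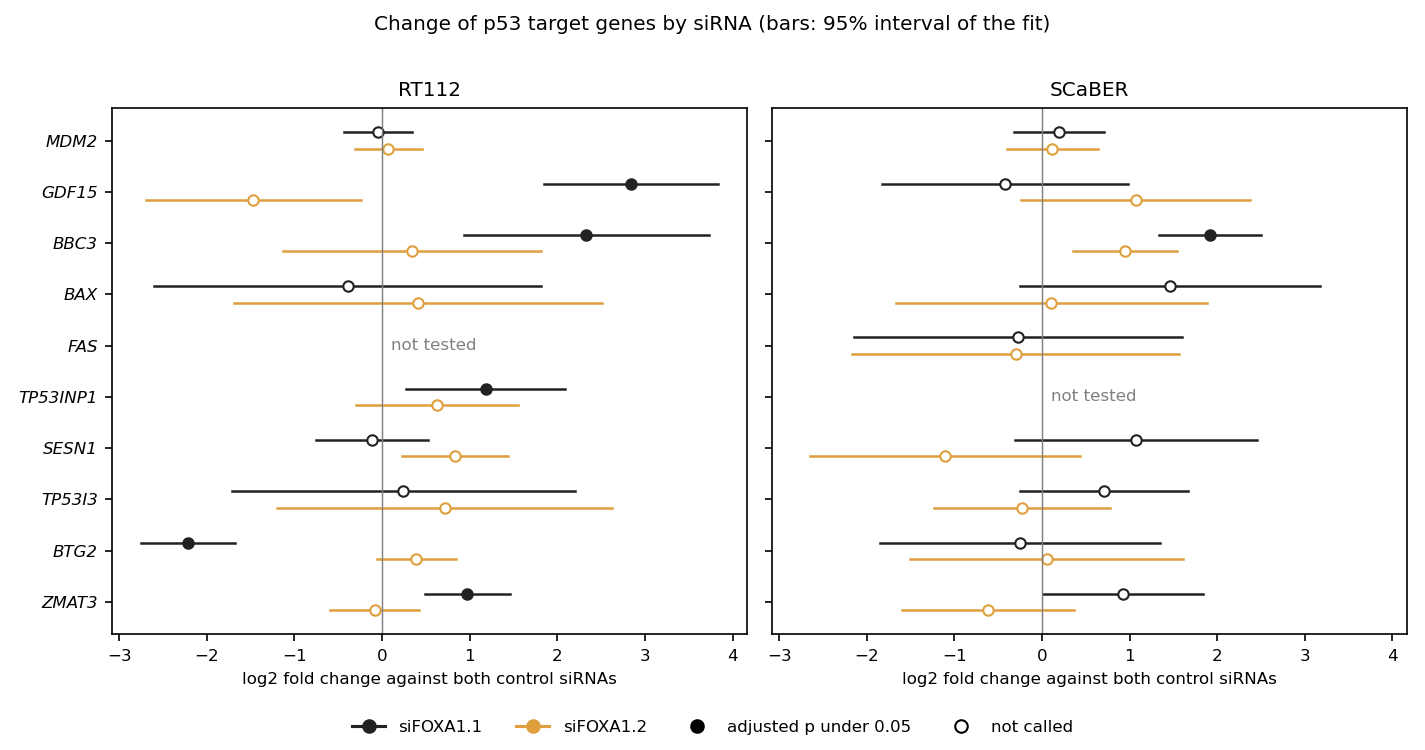
Log2 fold change of each p53 target gene against both control siRNAs in RT112 and SCaBER, with bars for the 95% interval of the edgeR fit and filled points for an adjusted p under 0.05. siFOXA1.1 (black) has 5 filled points in RT112 and 1 in SCaBER, BBC3, and siFOXA1.2 (orange) has none.

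The siRNAs to FOXA1 were also compared with each other. In RT112, GDF15 (log2 4.31, SE 0.662, adjusted p = 9.87e-05) and ZMAT3 (log2 1.06, SE 0.279, adjusted p = 0.0083) were higher and BTG2 (log2 -2.60, SE 0.277, adjusted p = 2.11e-06) and SESN1 (log2 -0.95, SE 0.346, adjusted p = 0.048) lower with siFOXA1.1 than with siFOXA1.2. These were 4 of 9 genes, where 28.1% of all genes were called. The SESN1 call sat at the threshold, was lost without any 1 of the 8 RT112 libraries (adjusted p from 0.0573 to 0.156), and had an adjusted p of 0.0529 with the replicate block and 0.0651 by DESeq2, while limma on log2(TPM + 1) called it. ZMAT3 was not called there by limma on log2(TPM + 1) (adjusted p = 0.127). Without siFOXA1.2 replicate 1 the count fell to 2, GDF15 and BTG2, and without siFOXA1.1 replicate 1 BBC3 was called as well (log2 2.55, adjusted p = 0.0296). In SCaBER none of the 9 genes was called by edgeR, DESeq2 or limma, where edgeR called 4.85% of all genes, and BBC3, SESN1 and ZMAT3 had an unadjusted p under 0.05. Leaving out SCaBER siFOXA1.1 replicate 1 made 2 calls there, BBC3 and ZMAT3, and ZMAT3 was also called without the filter (adjusted p = 0.0305).

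The control siRNAs gave the background of these comparisons. Between siControl.1 and siControl.2 none of the 9 genes was called in RT112, where 2.36% of all genes were, and none in SCaBER, where 0.0672% were, by edgeR, DESeq2 or limma. BBC3, TP53INP1 and SESN1 in RT112 and BBC3 in SCaBER had an unadjusted p under 0.05. With both FOXA1 siRNAs pooled, 4 libraries against 4, edgeR called none of the 9 in RT112, where 0.108% of all genes were called and none of the 9 had an unadjusted p under 0.05. In SCaBER it called none where 0.0084% of all genes were called. BBC3 did not overlap between the groups there, which held for 5.28% of all genes, and was not called (log2 1.46, 95% interval 0.75 to 2.17, adjusted p = 0.274). BBC3 was called in that comparison by DESeq2 (log2 1.47, adjusted p = 0.0143) and without the filter on low counts (log2 1.46, adjusted p = 6.72e-05). The size of the change hardly moved while the adjusted p did, so the call depends on the setting, and the cause was not tested.

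Whether a change differed between the lines was tested as an interaction over all 16 libraries and 13701 genes. GDF15 alone was called for siFOXA1.1, where 3.14% of all genes were. Its siFOXA1.1 change was higher in RT112 than in SCaBER by log2 3.26, SE 0.824, adjusted p = 0.0363. The call held in 14 of 25 alternatives and was lost in 9 of the 16 fits that left out 1 library, which were all those without an RT112 or SCaBER siFOXA1.1 or siControl.2 library and the fit without RT112 siControl.1 replicate 1, with log2 differences of 2.93 to 3.65. For BTG2 the difference was log2 -1.98, 95% interval -3.13 to -0.82, adjusted p = 0.0573, just over the threshold. With all libraries it was called with library totals alone (adjusted p = 0.0488), without the filter (0.0111), by DESeq2 (0.0242) and by limma on log2(TPM + 1) (0.0336) and log2(TPM + 0.1) (0.0487). It was also called without SCaBER siControl.1 replicate 2 (log2 -2.57, adjusted p = 0.0056). For TP53I3 leaving out RT112 siFOXA1.1 replicate 2 made a call that rests on the library with no read. For BBC3 the difference was log2 0.40, 95% interval -0.84 to 1.63, adjusted p = 0.849. None of the 10 genes was called for siFOXA1.2 by edgeR, DESeq2 or limma, where edgeR called 0.0438% of all genes, and GDF15 and SESN1 had an unadjusted p under 0.05. FAS reads in RT112 were too few for its interaction value to be read.

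CDKN1A, the p53 target that encodes the cyclin-dependent kinase inhibitor p21, was set beside these genes. It read 93.2 and 53.6 CPM with siControl.1, 72.0 and 89.2 with siControl.2, 359 and 316 with siFOXA1.1 and 161 and 154 with siFOXA1.2 in SCaBER (log2 2.17, SE 0.216, adjusted p = 3.12e-05 for siFOXA1.1) and changed less in RT112 (log2 0.51, SE 0.187, adjusted p = 0.0457). That difference between the lines was itself called (log2 -1.68, SE 0.296, adjusted p = 0.00378). TP63, which encodes p63, read 7.89 and 14.0 CPM with siControl.1, 20.4 and 10.8 with siControl.2, 1.90 and 2.21 with siFOXA1.1 and 13.4 and 21.4 with siFOXA1.2 in RT112, where both siFOXA1.1 libraries were the lowest (log2 -2.53, SE 0.526, adjusted p = 0.00116). In SCaBER TP63 was not called with siFOXA1.1 (log2 0.02, 95% interval -0.78 to 0.82, adjusted p = 0.983), and the interaction was called (log2 -2.56, SE 0.630, adjusted p = 0.032). TP73 had a call in no comparison, and MDM4, the partner of MDM2 in restraining p53, had none either.

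A list of 42 other p53 targets was described in the same way. Of the 36 tested in RT112, siFOXA1.1 raised 6 and lowered 6, a share of 33.3% where 32.6% of all genes were called, so the list was near the background, and its median was log2 0.19. Among those called, the rises with the largest size were PLK3 (log2 1.87), the growth arrest gene GADD45A (1.54), SESN2 (1.34), SERTAD1 (1.33) and PMAIP1 (1.31), which encodes the pro-apoptotic NOXA. EI24 (log2 -1.82), CCNG1 (-1.32), which encodes cyclin G1, NINJ1 (-1.06) and FDXR (-0.89) fell, and ACER2 held 0 and 1 counts with siFOXA1.1, 21 and 17 with siControl.1 and 12 and 96 with siControl.2. In SCaBER 38 were tested, and siFOXA1.1 raised 3, TRIM22 (log2 2.86), SESN2 (1.43) and GADD45A (0.71), and lowered EI24 (-0.67), a share of 10.5% where 9.26% of all genes were called. TRIM22 is also an interferon-induced gene, and SESN2 is also on the list of ATF4 and CHOP targets counted below, so it counts in both lists. With siFOXA1.2 none of this list was called in either line. Of all genes 2.04% were called in RT112 there and 0.042% in SCaBER, so the list was near the background.

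Between the lines, 5 of 38 other p53 targets were higher in RT112 controls and 15 were lower, a share of 52.6% where 43.4% of all genes were called, with a median of log2 -0.23 against 0.022 over all genes. ABHD4 (log2 1.28), NINJ1 (1.07), PERP (0.61) and PLXNB2 (0.55) were the higher genes with at least 20 counts on average. PMAIP1 (log2 -3.94), GADD45A (-3.65) and SFN (-3.10), which encodes 14-3-3 sigma, were lower there. TRIM22 held 1 and 0 counts with siControl.1 and 0 and 0 with siControl.2 in RT112, and 72 and 114 and 17 and 20 in SCaBER. CMBL held 0 and 0 and 5 and 4 counts in RT112, and 23 and 76 and 72 and 58 in SCaBER.

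**Figure D4:**
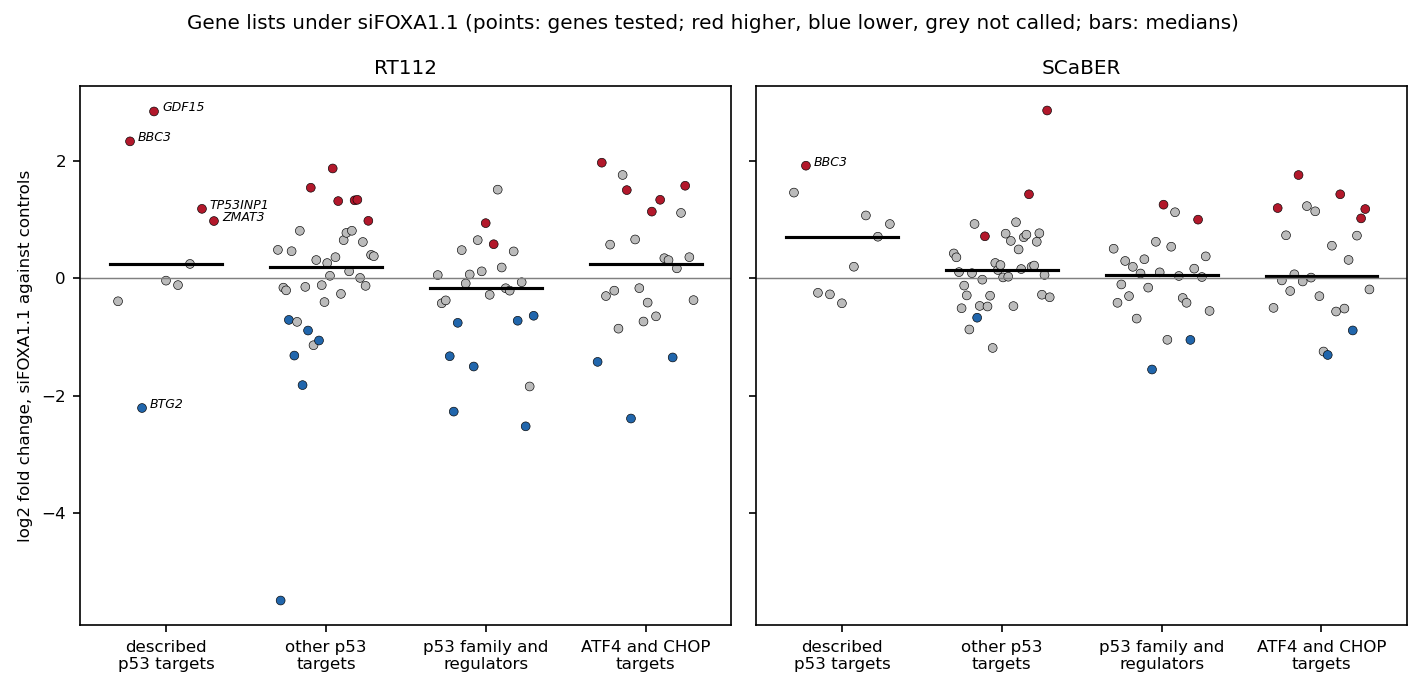
Log2 fold change of every gene tested with siFOXA1.1 against both controls, for the p53 target genes described here, the list of other p53 targets, the p53 family with its regulators, and the ATF4 and CHOP targets. Red points rose, blue points fell, grey points were not called, and the bars at the medians lie within 0.71 of 0 in both lines.

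Other gene lists were counted in the same siFOXA1.1 comparisons, where 32.6% of all genes were called in RT112 and 9.26% in SCaBER. Of 26 genes of the p53 family and its regulators, 25 were tested in RT112, where 2 rose and 7 fell (36%), and all 26 in SCaBER, where 2 rose and 2 fell (15.4%). Of 27 targets of the stress factors ATF4 and CHOP, 24 were tested in each line, and 5 rose and 3 fell in RT112 (33.3%) while 5 rose and 2 fell in SCaBER (29.2%). In RT112 the shares of both lists were near that of all genes. Among the ATF4 and CHOP targets, and named after their values were seen, ATF3 rose in both lines (log2 1.97 in RT112 and 1.196 in SCaBER), and DDIT3, which encodes CHOP, rose in RT112 (1.502). The 24 genes tested ran from log2 -2.39 to 1.97 in RT112 and from -1.31 to 1.76 in SCaBER. Their medians were 0.24 and 0.039, so these rises do not stand for the list. Of the interferon genes 11 of 17 tested rose in RT112 (64.7%) and 21 of 23 in SCaBER (91.3%), with medians of log2 2.39 and 2.24. Of 24 cell division genes 23 fell in RT112 (95.8%) and 20 in SCaBER (83.3%), with medians of -2.61 and -1.38. With siFOXA1.2 no gene of the interferon or cell division lists was called in either line. Of all genes 2.04% were called in RT112 there and 0.042% in SCaBER, so the absence of calls was near the background. The part of these lists in the results above was not tested.

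Last, the genes with the most similar pattern were listed for the 7 members with a mean of at least 20 counts in both lines. Likeness was Pearson's r of log2(CPM + 1), centred within each line, over 16 libraries and 9705 other genes. For BTG2 these were C3orf58 (0.94), EBPL (0.92), ETV4 (0.92), for BBC3 UBE2H (0.89), MTF1 (0.89), LEPROT (0.88) and for GDF15 HSPBAP1 (0.88), PACSIN2 (0.87), SGSM2 (0.87). For ZMAT3 they were ABRAXAS2 (0.86), UQCR10 (0.86), PNPT1 (0.84), and for TP53I3 MAP9 (0.88), RIN3 (0.87), RPS19P7 (0.85). For MDM2 they were ATP8B1 (0.86), TLNRD1 (0.81), C5orf22 (0.80), and for SESN1 EXOC2 (0.84), ADAR (0.83), KIF5B (0.79). None of these nearest genes was another of the 10. Between GDF15 and BTG2 r was -0.75 over the 16 libraries, -0.87 over the 8 of RT112 and -0.061 over the 8 of SCaBER. This pair, not named in advance, had the lowest r among the 10 genes over the 16 libraries. TP53INP1 and SESN1 had the highest, at 0.71. The libraries share siRNAs in pairs, so these values describe the 16 libraries only.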

How the data were processed

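RNA from RT112 and SCaBER cells was sequenced from the 3′ end, in 16 libraries. The authors trimmed reads with TrimGalore 0.6.2 and aligned them with STAR 2.6.1a, as the submitters' processing notes name the tools, to hg38 with GENCODE 29, whereas the methods of the study name hg19. They deposited raw counts per gene for each library and, for each, TPM values, and whether counting used strand is not given in the sources used here. CPM was computed from the deposited counts and each library's total, with no gene of the table left out.

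Counts were tested with edgeR 4.0.16 in R 4.3.3, by the quasi-likelihood F test after TMM scaling and its filter on low counts, with groups of line and target. One fit per line held the 4 siRNAs as separate groups, a second pooled them into 2 groups of 4 libraries, a fit of the 8 control libraries compared the lines, and a fit of all 16 gave the line differences. P-values were adjusted by Benjamini-Hochberg over all genes tested, and a gene was called under 0.05. Each SE was derived from the fitted log2 change and its F statistic, and the 95% interval from that SE with a t quantile. SEs and intervals thus restate the unadjusted p of the test and the size of the change. Every adjusted p is from edgeR unless another tool is named. The tests were tried on simulated counts first. Alternatives were DESeq2 1.42.0, limma 3.58.1 on log2(TPM + 1) and log2(TPM + 0.1), other scaling, no filter, single controls, a replicate block and leaving out each library.

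Within-batch values are differences of log2(CPM + 1) from the mean of both controls of that batch. The labels call the replicate number an experiment batch, and equal numbers were taken to mark a shared batch. The sources used here do not describe how the batches were made. Deviations of equal-numbered libraries correlated at -0.011 to 0.017 in RT112 and 0.017 to 0.22 in SCaBER.

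The members and gene lists were chosen with earlier results of these data known. Besides the 10 genes, the p53 family, MDM4, CDKN1A and FOXA1, the rule named up to 5 rises and 5 falls of other p53 targets per comparison among called genes with a mean of at least 20 counts, and the 3 genes most correlated with each member. Some genes under this rule are not reported here. A floor of 3 counts and the intervals cover counting error or spread between these libraries only.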

Additional observations from a re-analysis of the deposited data

Results flagged for a closer look

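In the SCaBER controls, BTG2 in siControl.1 replicate 2 stood apart from the other 3 libraries: the gap to its nearest neighbour took 0.832 of the range of the group, past the 95% limit of Dixon's test. TP53I3 in the same library stood apart on the low side, with a gap of 0.887 of the range. These were 2 of 20 groups of 4 control libraries tested, and chance flags about 1 in 20 groups.

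The siFOXA1.1 change of GDF15 was higher in RT112 than in SCaBER by log2 3.26 in the interaction test over all 16 libraries (edgeR, adjusted p = 0.0363).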

How the results depend on the processing

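Over all comparisons, 17 changes of the 10 genes were called. Their alternatives gave 277 values, of which 221 were still called in the same direction and 56 were not, and 9 of the 17 were called under every alternative. Of 1795 alternative values of the 103 uncalled changes, 22 were called. With the replicate block, SESN1 between the FOXA1 siRNAs in RT112 (log2 -0.95, adjusted p = 0.0529) and FAS between the lines (log2 -2.23, adjusted p = 0.0664) lost their calls, and the block changed no other call of the 10 genes.

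Counts of called genes moved as follows. For siFOXA1.1 in RT112 the 5 calls became 3 with limma on log2(TPM + 1) and 3 on log2(TPM + 0.1). Between the FOXA1 siRNAs in RT112 the 4 calls fell to 2 at the lowest when 1 library was left out. In SCaBER that comparison went from 0 calls to 1 without the filter and ranged from 0 to 2 when 1 library was left out. Between the lines the 6 calls became 7 with DESeq2 or either limma setting, which add TP53I3, 5 with library totals alone or the replicate block, and 4 to 6 when 1 library was left out. Pooled FOXA1 siRNAs in SCaBER gave 0 calls, and 1 without the filter and 1 with DESeq2. The line difference for siFOXA1.1 gave 1 call, and 2 with library totals alone, without the filter, with DESeq2 or with limma on log2(TPM + 1), 0 with siControl.1 alone as control, and 0 to 2 when 1 library was left out. TP53I3 with siFOXA1.1 in RT112 ranged from log2 -8.15 to 1.23 when 1 library was left out, against 0.24 with all. It was called at -8.15 without siFOXA1.1 replicate 2 (adjusted p = 0.00318), which leaves the 1 library with no read, so this value is no bound. Apart from that library and from settings that remove genes or libraries, the cause of these shifts was not tested. FAS in RT112 and TP53INP1 in SCaBER lay near the floor, and their changes were not detectable at this depth.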
